A study of Rattus norvegicus with 16 samples.

Results

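Apolipoproteins are the proteins that coat the lipid particles of plasma, and the 10 apolipoprotein genes Apoa1, Apoa2, Apoa4, Apoa5, Apob, Apoc1, Apoc2, Apoc3, Apoe and Apoh were followed in the liver of weanling rats. Their probes were found by matching the RefSeq identifier of every non-control probe to these rat symbols. All 10 genes had 1 probe each, and all 10 were among the 12072 genes or identifiers tested, of which 7895 carried a symbol. The samples were livers of male Sprague-Dawley pups at postnatal day 21, and the RNA of 2 pups was pooled for each of the 16 arrays, 4 in each group. In group M the dams raised their own litters and received, at 1.0 mg/kg/day in corn oil, a mixture of methylmercury, polychlorinated biphenyls and organochlorine pesticides. In group C the dams also raised their own litters and received corn oil alone. In group MM pups born to mixture-treated dams were raised from birth by other dams given the mixture, and in group CC control pups were raised by other control dams. The mixture reached the pups through gestation and nursing, so its effect in utero and through milk cannot be told apart in these 4 groups. Cy5 carried the liver RNA on every array and Cy3 a common reference RNA from 14 rat cell lines. Each value below is the log2 ratio of Cy5 over Cy3 after loess normalization within the array, unless another scale is named. A difference was called at a limma adjusted p below 0.05 over all genes tested. The 8 arrays of C and CC lay on slide 1 and the 8 arrays of M and MM on slide 2, so slide and mixture cannot be told apart in either mixture comparison. CC and C shared a slide, and so did MM and M. No label ties a pool to its litter, and p-values therefore measure the spread between these pools.

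As background, apolipoprotein B is the structural protein of very-low-density lipoprotein and low-density lipoprotein, and apolipoproteins A1 and A2 are the main proteins of high-density lipoprotein. The C apolipoproteins and A5 set how fast lipoprotein lipase breaks down triglyceride in the circulation: C2 is the cofactor that activates the enzyme, A5 raises its activity, and C1 and C3 restrain it or the uptake of remnants. Apolipoprotein E is the ligand by which liver receptors take up remnant particles, A4 is made in rat liver as well as in intestine and is carried on chylomicrons and high-density lipoprotein, and apolipoprotein H, also called beta-2-glycoprotein I, binds phospholipids. The liver makes most of these proteins. In the annotation, Apoa1, Apoc3, Apoa4 and Apoa5 follow each other without another gene between them, and Apoc2, Apoc4, Apoc1 and Apoe do likewise on another chromosome.

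The promoter windows of Apoc2 and Apoa4 are shown because these genes were called between M and C, and that of Apoc1 because it lies in the same cluster as Apoc2. Each is the 250 bases before a RefSeq start site in build GRCr8, written 5′ to 3′ on the strand of the gene, and capitals mark matches on either strand to 5 motifs. The motifs are the TATA box (TATAAA), the CCAAT box, the core of the Hnf4a motif (CAAAG), the nuclear receptor element (AGGTCA) and the core of the aryl hydrocarbon receptor element (GCGTG). The windows are Apoc2 at chr1:88462366-88462615 on the minus strand, Apoc1 at chr1:88478221-88478470 on the minus strand and Apoa4 at chr8:55435529-55435778 on the plus strand.
Apoc2: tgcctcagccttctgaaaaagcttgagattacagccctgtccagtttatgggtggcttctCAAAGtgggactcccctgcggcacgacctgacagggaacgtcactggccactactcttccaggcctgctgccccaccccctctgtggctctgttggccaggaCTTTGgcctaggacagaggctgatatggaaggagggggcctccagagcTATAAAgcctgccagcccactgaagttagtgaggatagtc
Apoc1: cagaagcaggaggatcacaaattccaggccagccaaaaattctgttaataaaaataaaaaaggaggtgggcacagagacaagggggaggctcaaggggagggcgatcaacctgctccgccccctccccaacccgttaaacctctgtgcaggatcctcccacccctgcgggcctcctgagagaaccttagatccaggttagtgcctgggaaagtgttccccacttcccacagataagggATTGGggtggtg
Apoa4: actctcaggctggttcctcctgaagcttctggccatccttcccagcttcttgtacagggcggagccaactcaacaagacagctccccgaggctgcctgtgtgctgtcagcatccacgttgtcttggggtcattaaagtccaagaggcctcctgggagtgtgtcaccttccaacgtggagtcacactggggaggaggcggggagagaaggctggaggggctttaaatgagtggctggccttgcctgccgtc
The Apoc2 window held TATAAA beginning 40 bases before the start and CAAAG on both strands. In the Apoc1 window shown a reverse CCAAT lay 12 bases before that start. The window of another Apoc1 start, not shown, held none of the 5 motifs. None of the 5 motifs was found in the Apoa4 window. Among 33465 RefSeq windows of the same length TATAAA occurred in 12.9%, CCAAT in 34%, CAAAG in 48.2%, AGGTCA in 14.1% and GCGTG in 25.9%. Windows were found for 6 of the 10 genes, and none of their 10 windows held GCGTG. Apoa1, Apoa2, Apob and Apoc3 had no window. A match is a stretch of letters and says nothing of whether a factor binds there.

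Every apolipoprotein probe was well above background in both channels on 16 of 16 arrays, and no spot of them was saturated. Apoc1 was read from 10 spots per array and the other genes from 2. The hepatocyte markers (8 of 8 probes) were also well above background. The summed marker signals given here are of Cy5 after quantile normalization between arrays. For the hepatocyte markers the sum lay between 1033000 and 1150000 on all arrays. That normalization gives the brightest probes nearly the same values on every array, so this sum cannot show whether hepatocyte content varied. Of the intestinal markers, 1 of 4 was well above background on 8 or more arrays, and their summed signal was 491 to 728. In such bulk tissue fewer cells of a type and less RNA per cell cannot be told apart. Muscle and pancreas markers stood out on single arrays: the summed signal of the skeletal muscle markers was 8279 on CC 1 and 6472 on CC 2, against 342 to 377.5 on the other 14, and that of the exocrine pancreas markers was 10370 on CC 2, 3702 on CC 1, 2832 on MM 1 and 1397 on M 6. What part these transcripts have in the results was not tested.

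Array CC 1 stood apart in the genes described here, and results that rest on it are given with and without it. It had the lowest ratio of the 8 slide 1 arrays in 10 of 10 genes. Apoc3, for example, had a ratio of 4.30 on CC 1, against 5.73 to 5.94 on the other 7 arrays of slide 1. In Cy3 the Apoc3 spots read 32780 on CC 1, against 10470 to 12340 on those 7, and in Cy5 they read 248200, against 185700 to 221200. After quantile normalization the Apoc3 gap lay in Cy3 (1.39), with 0.01 in Cy5. In 9 of the 10 genes, all but Apoc3, CC 1 was also lower in Cy5 alone. At the median CC 1 lay below the mean of the other slide 1 arrays by -0.86 in the ratio (range -1.53 to -0.34 over the 10 genes), by -0.27 in Cy5 alone, and above it by 0.58 in Cy3 alone. In Apoa2, Apoa4 and Apoe the Cy5 gap was the larger (-0.49, -0.24 and -0.32), against Cy3 gaps of 0.24, 0.12 and 0.22. Its Cy3 intensity was the highest of the slide in 9 of 10 genes, and Apoa4 was the exception. Over the 8 hepatocyte markers the median gap was -1.81 in the ratio, -0.10 in Cy5 and 1.67 in Cy3, and over all genes it was 0.01 in the ratio. Genes with a mean ratio above 4, of which there were 387, lay -0.44 lower on CC 1. Without CC 1, the SE of the Apoc2 difference between M and C was 0.13, against 0.20 with it, since all arrays share 1 estimate of the spread.

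**Figure D1:**
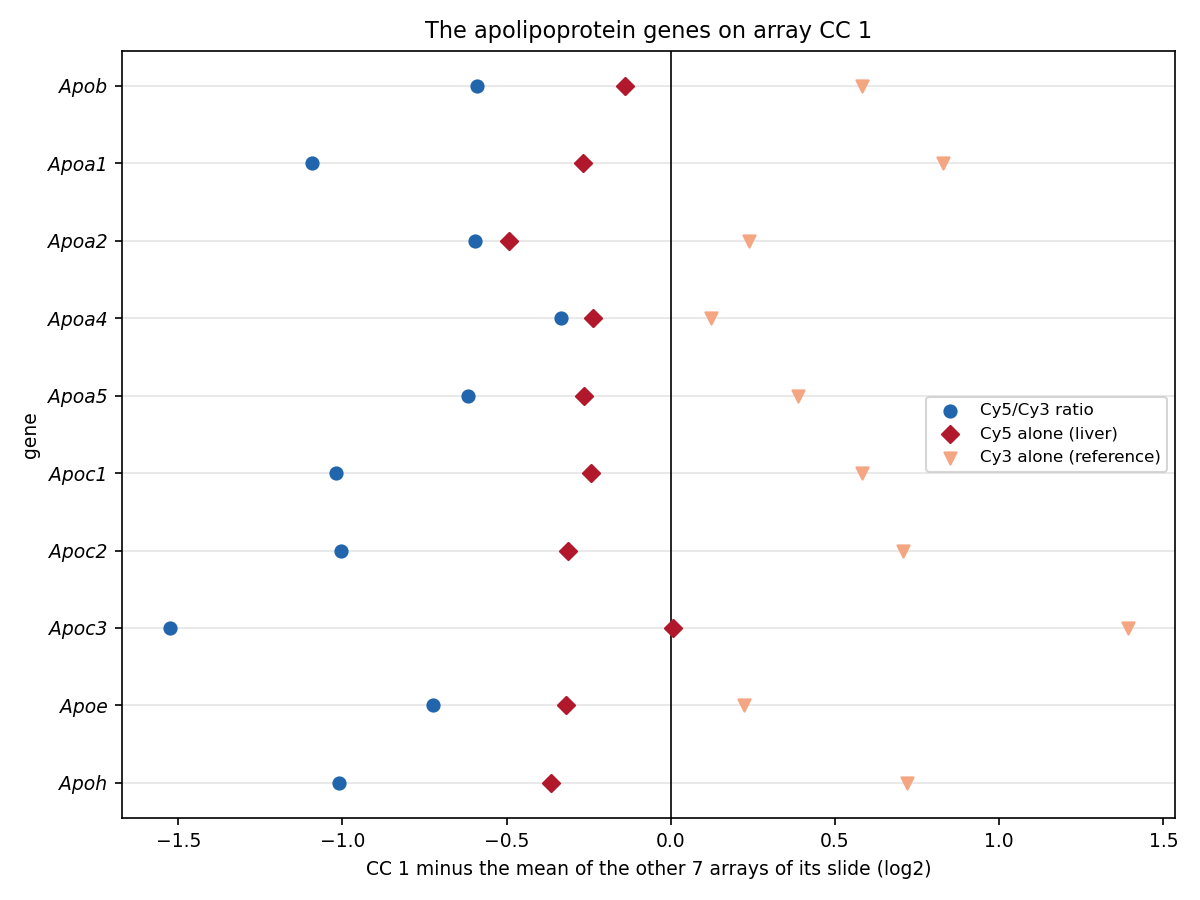
The horizontal axis is the gap between array CC 1 and the mean of the other 7 arrays of slide 1 in log2 units, for the ratio, Cy5 alone and Cy3 alone, and each row is 1 gene. All 10 ratio points lie left of 0 and all 10 Cy3 points right of it, with the widest ratio and Cy3 gaps in Apoc3, whose Cy5 point lies near 0.

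Between M and C, which asks what the mixture does in pups left with their own dams, 2 of the 10 genes were called and both were lower in M. The log2 ratio of Apoc2, the cofactor of lipoprotein lipase, was lower by 1.05, and that of Apoa4 by 0.24. In Cy5 alone, the liver channel, neither was called (-0.04, limma adjusted p = 0.903, and -0.23, adjusted p = 0.726). In the ratio 20.4% of all genes tested were called in either direction and 12.2% were called lower, so that 2 of 10 is the share found among all genes. The median difference of the 10 genes was -0.24, against -0.05 over all genes and -0.20 over the 8 hepatocyte markers. The M and C arrays did not overlap in 5 of 10 genes (Apoa1, Apoa2, Apoa4, Apoc1 and Apoc2), where 25.1% of all genes showed no overlap.

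Apoc2 had ratios of 6.35, 6.28, 6.36 and 6.40 on the M arrays, against 7.58, 7.30, 7.04 and 7.69 on the C arrays. All 4 M arrays lay below all 4 C arrays, and the C arrays spread more widely. The difference was -1.05 ± 0.20 (SE, n = 4 arrays a group, limma adjusted p = 0.00188), with a 95% interval of -1.48 to -0.62. The ratio of Cy5 over Cy3 in M stood at 0.483 times that in C. Apoa4 had ratios of 4.42, 4.38, 4.40 and 4.43 on the M arrays, against 4.69, 4.67, 4.55 and 4.67 on the C arrays. These M values were close together and again all below C. The difference was small, -0.24 ± 0.08 (limma adjusted p = 0.0333). The Apoa4 call was lost in 7 of the 8 fits that left out an M or a C array (adjusted p 0.0558 to 0.0788), and it held without C 11, the lowest C array. A fit of the 8 M and C arrays alone called 5 of the 10 genes, Apoa2 higher and Apoa1, Apoa4, Apoc1 and Apoc2 lower in M, where it called 19.7% of all genes.

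Among the proteins of high-density lipoprotein, Apoa1 was 7.20, 7.0, 7.17 and 7.14 on the M arrays, against 7.46, 7.45, 7.29 and 7.34 on the C arrays. The groups did not overlap, but the difference of -0.26 ± 0.18 was not called (limma adjusted p = 0.353). Apoa2 was 6.65, 6.74, 6.88 and 6.86 on the M arrays, against 6.44, 6.43, 6.49 and 6.60 on the C arrays. Here all M arrays lay above all C arrays, with a difference of 0.29 ± 0.14 that was not called either (limma adjusted p = 0.159). Apob, the structural protein of very-low-density lipoprotein, was 7.63 to 7.93 on the M arrays and 7.65 to 8.08 on the C arrays, and its 95% interval reached from -0.54 to 0.37.

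Of the genes that act on lipase activity and remnant uptake, Apoc1 was 9.36, 9.15, 9.22 and 9.26 on the M arrays, against 9.95, 9.64, 9.54 and 9.39 on the C arrays. Each M array lay below each C array, and the difference of -0.38 ± 0.22 missed the threshold (limma adjusted p = 0.236). Apoc3, an inhibitor of lipoprotein lipase, differed by -0.24 ± 0.25 and Apoa5, which raises lipase activity, by 0.01 ± 0.26. For Apoe, the receptor ligand, the difference was -0.01 ± 0.15, and for Apoh, the phospholipid-binding protein, -0.25 ± 0.19. The 95% intervals of these 4 were -0.76 to 0.28 for Apoc3, -0.55 to 0.57 for Apoa5, -0.33 to 0.31 for Apoe and -0.64 to 0.15 for Apoh, so differences of moderate size in either direction are not settled. Without CC 1, which enters this comparison only through the shared estimate of spread, 4 genes were called lower in M (Apoa1, Apoa4, Apoc2 and Apoc3, with adjusted p of 0.0102, 0.00679, 6.63e-05 and 0.0266), where 22.5% of all genes were called.

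**Figure D2:**
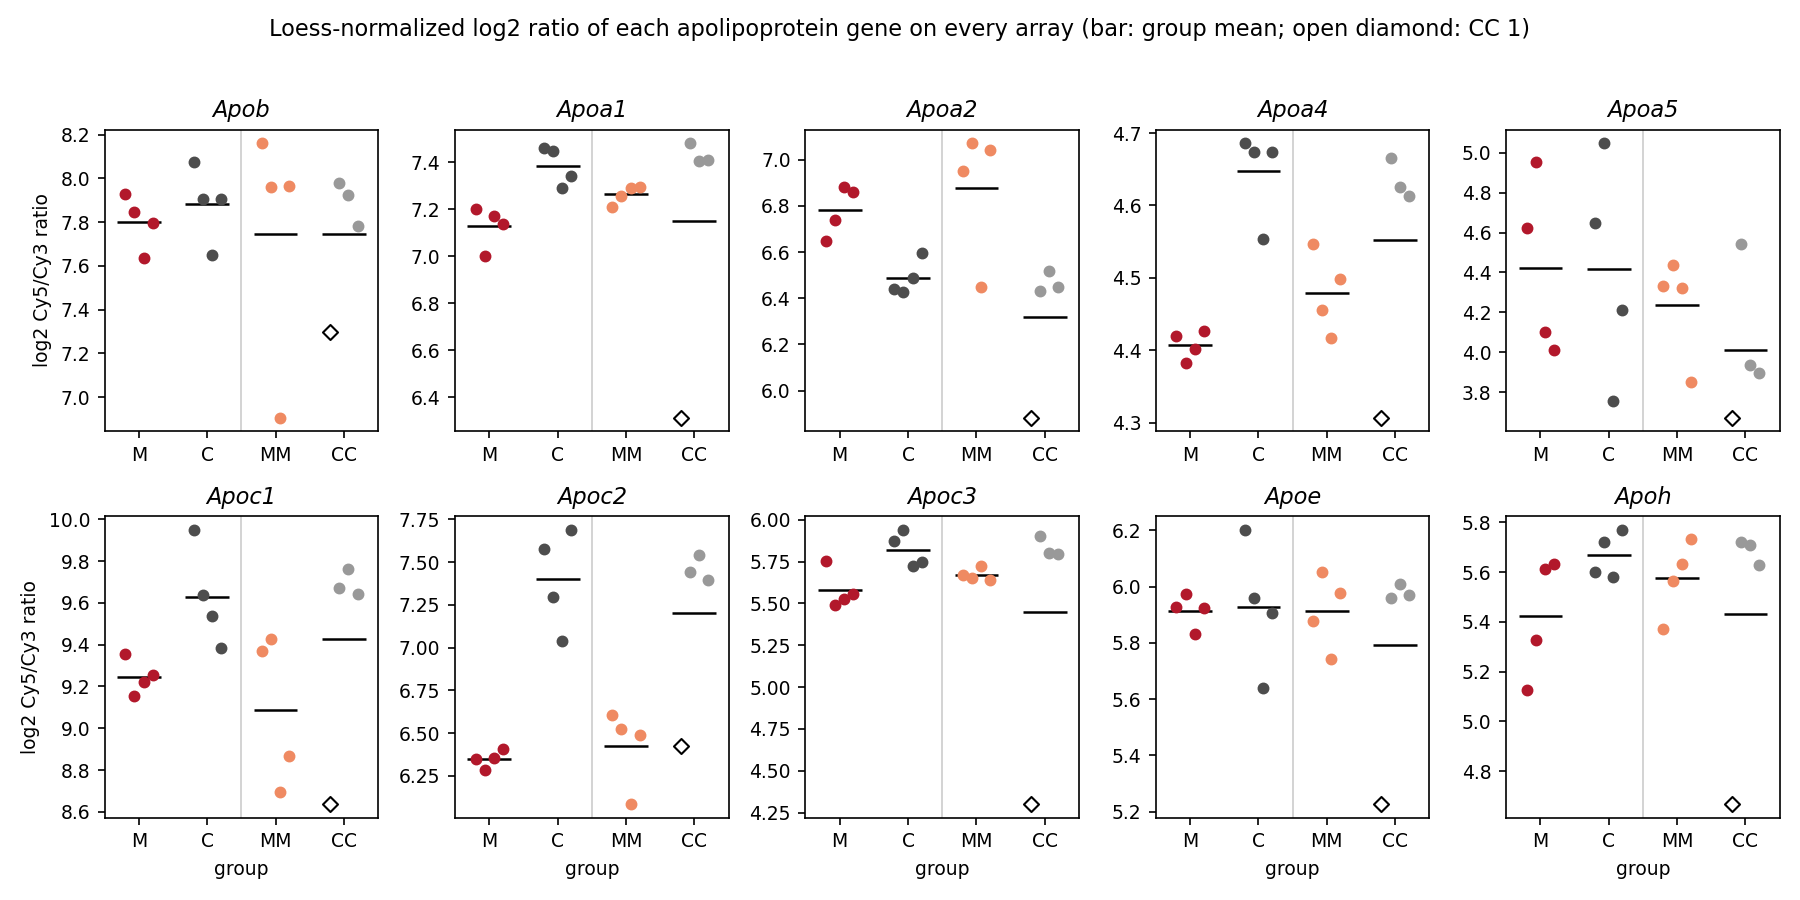
Each panel gives the log2 ratio of Cy5 over Cy3 of 1 gene on all 16 arrays, grouped as M, C, MM and CC from left to right, each panel with its own scale, and bars are group means. In Apoc2 the M arrays sit between 6.28 and 6.40 and the C arrays between 7.04 and 7.69, and the open diamond marks CC 1, the lowest CC array in every panel.

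Between MM and CC, the same question in cross-fostered pups, 2 of 10 genes were called, where 20% of all genes were. The ratio of Apoa2 was higher and that of Apoc2 lower in MM. Over the 10 genes the median difference was 0.12, against -0.06 over all genes and 0.22 over the 8 hepatocyte markers. None of the 10 had groups that did not overlap, where 21.9% of all genes did. Apoa2 had ratios of 6.95, 7.07, 6.45 and 7.04 on the MM arrays, against 5.88, 6.43, 6.52 and 6.45 on the CC arrays. The low MM value was that of MM 3 and the low CC value that of CC 1. Its difference was 0.56 ± 0.14 (limma adjusted p = 0.0116). Apoc2 had ratios of 6.61, 6.53, 6.08 and 6.49 on the MM arrays, against 6.42, 7.44, 7.54 and 7.40 on the CC arrays. CC 1 alone fell within the MM range, and the other 3 CC arrays lay above every MM array. The difference was -0.78 ± 0.20 (limma adjusted p = 0.0139). Both calls missed the threshold in a fit of the 8 MM and CC arrays alone (adjusted p = 0.0625 for Apoa2 and 0.0557 for Apoc2), which called 12.8% of all genes. With array row as a block over both slides, Apoc2 stayed called at -0.78 (adjusted p = 0.0122). With a separate row term for each slide the fit gives the difference at row 1. There Apoc2 was at -0.61 and not called (adjusted p = 0.107). Within row 1 of the slides, with 2 arrays a group, the Apoa2 difference was 0.86 (adjusted p = 0.0328), and within row 2 it was 0.26 (adjusted p = 0.357).

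The other 8 genes were not called between MM and CC. Their differences were 0.00 ± 0.21 for Apob, 0.11 ± 0.18 for Apoa1, -0.07 ± 0.08 for Apoa4 and 0.22 ± 0.26 for Apoa5. They were -0.34 ± 0.22 for Apoc1, 0.22 ± 0.25 for Apoc3, 0.12 ± 0.15 for Apoe and 0.14 ± 0.19 for Apoh. Apob showed the widest gap within MM: it was 8.16, 7.96, 6.91 and 7.97 on the MM arrays, against 7.30, 7.98, 7.92 and 7.78 on the CC arrays. The MM 3 value of Apob came with a Cy5 intensity of 6440, against 15950 to 17410 on the other MM arrays. These intensities are not scaled between arrays, and MM 3 had the lowest median Cy5 of all arrays (87). After quantile normalization Apob in Cy5 was 13.12 (log2) on MM 3, against 13.96 to 14.14 on the other MM arrays. Apoc1 was lowest on the same array, at 8.69, against 8.87 to 9.43 on the other MM arrays.

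Leaving out CC 1 changed this comparison. Apoc2 was then -1.04 ± 0.14 lower in MM (limma adjusted p = 0.000215) and Apoc1 -0.60 ± 0.16 (adjusted p = 0.0174), while Apoa2 stood at 0.41 ± 0.12 (adjusted p = 0.0293). With CC 1 out, 3 of 10 genes were called, where 18.3% of all genes were, and the median difference of the 10 genes was -0.15. Apoa1 stood at -0.17 without CC 1, against 0.11 with it, Apoa4 at -0.15, against -0.07, and Apoc3 at -0.16, against 0.22, none of them called. The Apoc2 differences of -1.05 between M and C and -1.04 between MM and CC without CC 1 come from separate arrays but share the slide difference.

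The reference channel was labelled from the common reference RNA. On CC 1 its signal was raised by a median of 1.67 over the hepatocyte markers, against -0.02 over the 8314 genes with a log2 ratio within 1 of 0. What gives this signal was not tested. In Cy3 alone, quantile normalized between arrays, 4 of 10 genes were called between M and C and all 4 were higher on the M arrays (Apoa1 0.48 ± 0.14, Apoa2 1.51 ± 0.12, Apoc1 0.31 ± 0.13 and Apoc2 0.95 ± 0.15, with limma adjusted p of 0.0061, 2.04e-08, 0.0381 and 5.65e-05), where 66.2% of all genes were called. Between MM and CC 3 of 10 were called in Cy3, again higher on slide 2 (Apoa2 1.26, Apoc1 0.30 and Apoc2 0.70), where 66.2% of all genes were called. Without CC 1 the Cy3 counts were 6 between M and C and 5 between MM and CC, where 71.4% and 69.5% of all genes were called.

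Apoa2 differed in both channels. Its Cy3 intensity was 420, 438, 532 and 389 on the M arrays, against 136, 114, 142 and 137 on the C arrays. In Cy5 it read 11960, 20500, 24110 and 17590 on the M arrays, against 5428, 4472, 5114 and 6030 on the C arrays. Cross-fostered pups gave the same picture, with Cy5 at 13600, 25950, 8942 and 15070 on the MM arrays, against 4210, 4694, 5440 and 4610 on the CC arrays. Neither channel had overlapping groups. Over all 8 arrays of each slide Apoa2 was 3.57-fold higher in Cy5 and 2.61-fold higher in Cy3 on slide 2, and its Cy3 shift lay at the 99.97th percentile of all genes. In Cy5 alone Apoa2 was the single gene called of the 10, by 1.77 ± 0.19 between M and C (limma adjusted p = 8.43e-05) and by 1.90 ± 0.19 between MM and CC (adjusted p = 3.57e-05), where 2.21% and 2.57% of all genes were called. The ratio of Apoa2 therefore moved far less than either channel.

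Apoc2 differed in the reference channel. Its Cy3 intensity was 3123, 2230, 2564 and 2722 on the M arrays, against 1343, 1232, 1408 and 991.5 on the C arrays. In Cy5 it read 61870, 64850, 71240 and 74780 on the M arrays, against 97070, 74260, 63630 and 75580 on the C arrays. The Cy3 groups stood apart while the Cy5 groups overlapped. After quantile normalization the Cy5 difference of Apoc2 was -0.04 ± 0.11 between M and C (limma adjusted p = 0.903, 95% interval -0.28 to 0.19) and -0.01 ± 0.11 between MM and CC (adjusted p = 0.975, 95% interval -0.25 to 0.23). With Cy5 scaled to the 75th percentile instead, Apoc2 was at -0.17 ± 0.12 (adjusted p = 0.571) and -0.19 ± 0.12 (adjusted p = 0.436). Its Cy3 shift between slides was 0.82, at the 99.34th percentile of all genes. The lower ratio of Apoc2 in mixture pups thus stood beside a higher reference signal, and a lower liver signal was not detected.

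**Figure D3:**
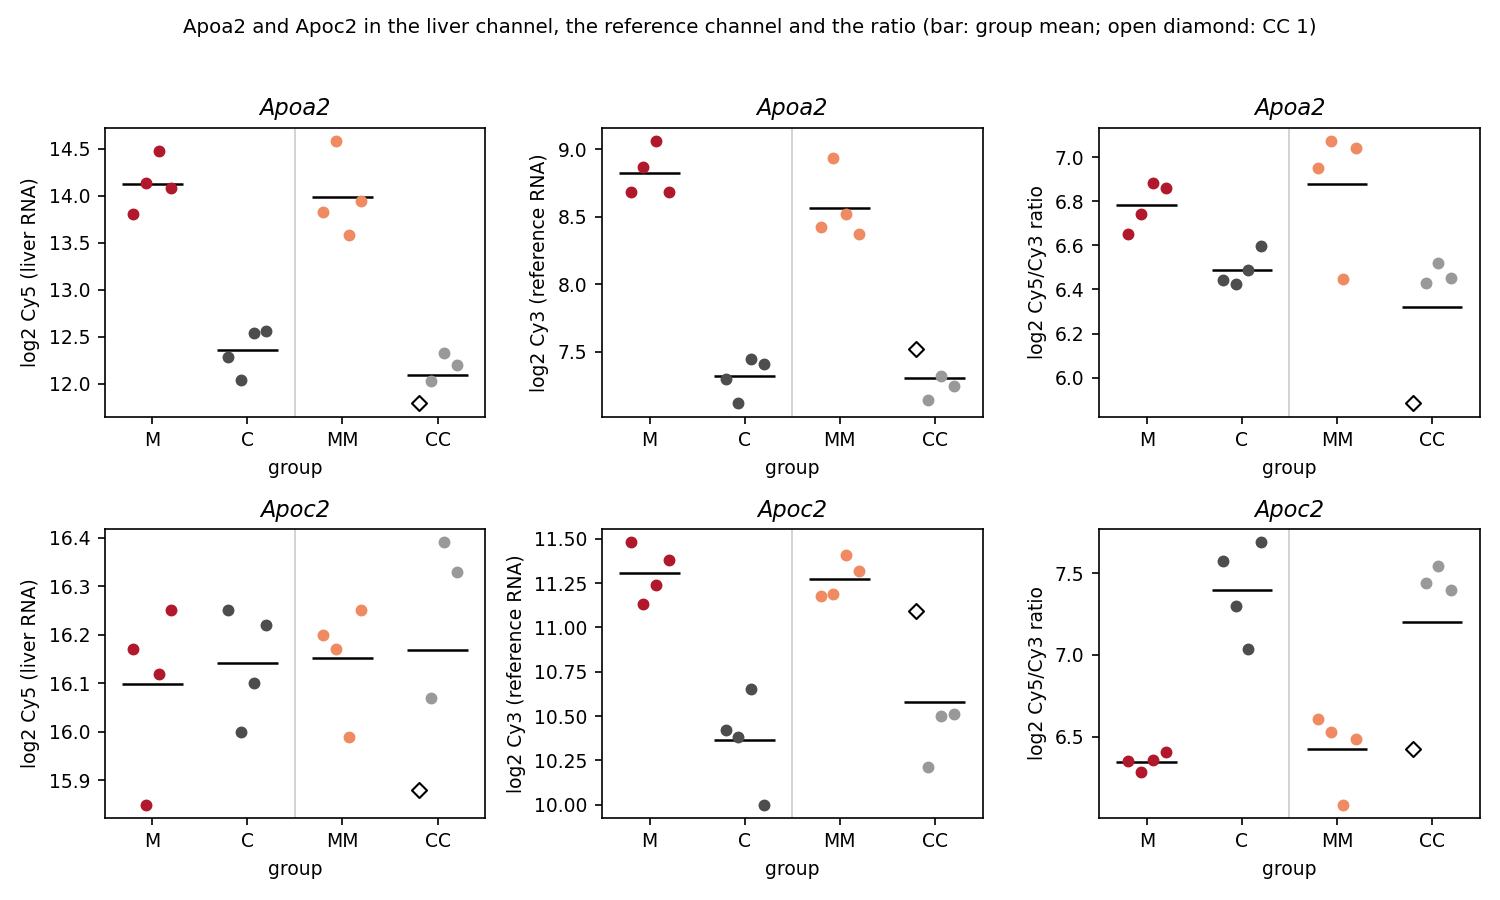
Columns give the background-corrected, quantile-normalized log2 signal of the liver channel and of the reference channel, and the loess log2 ratio, for Apoa2 (top) and Apoc2 (bottom), with 1 point per array and bars at the group means. Apoa2 lies higher in M and MM in both channels, whereas Apoc2 lies higher in M and MM in the reference channel and overlaps in the liver channel.

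For Apoa5 both channel differences lay below 0 and the ratio stayed near 0 between M and C. In Cy5 it was 14.28, 14.41, 14.50 and 14.36 (log2) on the M arrays, against 14.85, 14.71, 14.81 and 14.78 on the C arrays. All M arrays were lower, and the difference was -0.40 ± 0.10 (limma adjusted p = 0.0513). Without CC 1 it was called (adjusted p = 0.0348), where 2.91% of all genes were. Between MM and CC it was -0.25 ± 0.10 (adjusted p = 0.258). Its Cy3 difference was -0.48 ± 0.28 between M and C (adjusted p = 0.135) and -0.58 ± 0.28 between MM and CC (adjusted p = 0.0757). Apoa1, in Cy5, differed by 0.31 ± 0.10 between M and C (adjusted p = 0.111) and by 0.30 ± 0.10 between MM and CC (adjusted p = 0.133). The remaining Cy5 differences of Apoa4, Apob, Apoc1, Apoc3, Apoe and Apoh lay between -0.23 and 0.06 between M and C and between -0.12 and 0.14 between MM and CC. After quantile normalization Apoc1, Apoc3 and Apoe, which are among the brightest probes in Cy5, can take few values, which limits what that channel shows of them.

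Several scalings of the ratio were set side by side: the loess ratio used here, the ratio of the scanner software, and the ratio in the deposited series table, whose normalization is not given in the sources used here. Apoc2 was called lower under each of them, at -1.02 between M and C and -0.69 between MM and CC in the scanner ratio and at -0.91 and -0.59 in the series table. It was the single gene of the 10 called in the scanner ratio, where 33.3% of all genes were called between M and C and 32.8% between MM and CC, and in the series table, where 19.3% and 17.9% were. Apoa2 changed sign with the scaling. Between M and C it was 0.29 in the loess ratio, 0.07 in the series table and -0.41 in the scanner ratio, and between MM and CC it was 0.56, 0.40 and -0.05. Without CC 1 the scanner ratio called Apoa2 lower in both comparisons (-0.41, adjusted p = 0.00188, and -0.26, adjusted p = 0.0415). No direction of Apoa2 relative to the reference is therefore settled. Apoa4 between M and C was -0.24 in the scanner ratio (adjusted p = 0.0501) and -0.17 in the series table (adjusted p = 0.121).

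**Figure D4:**
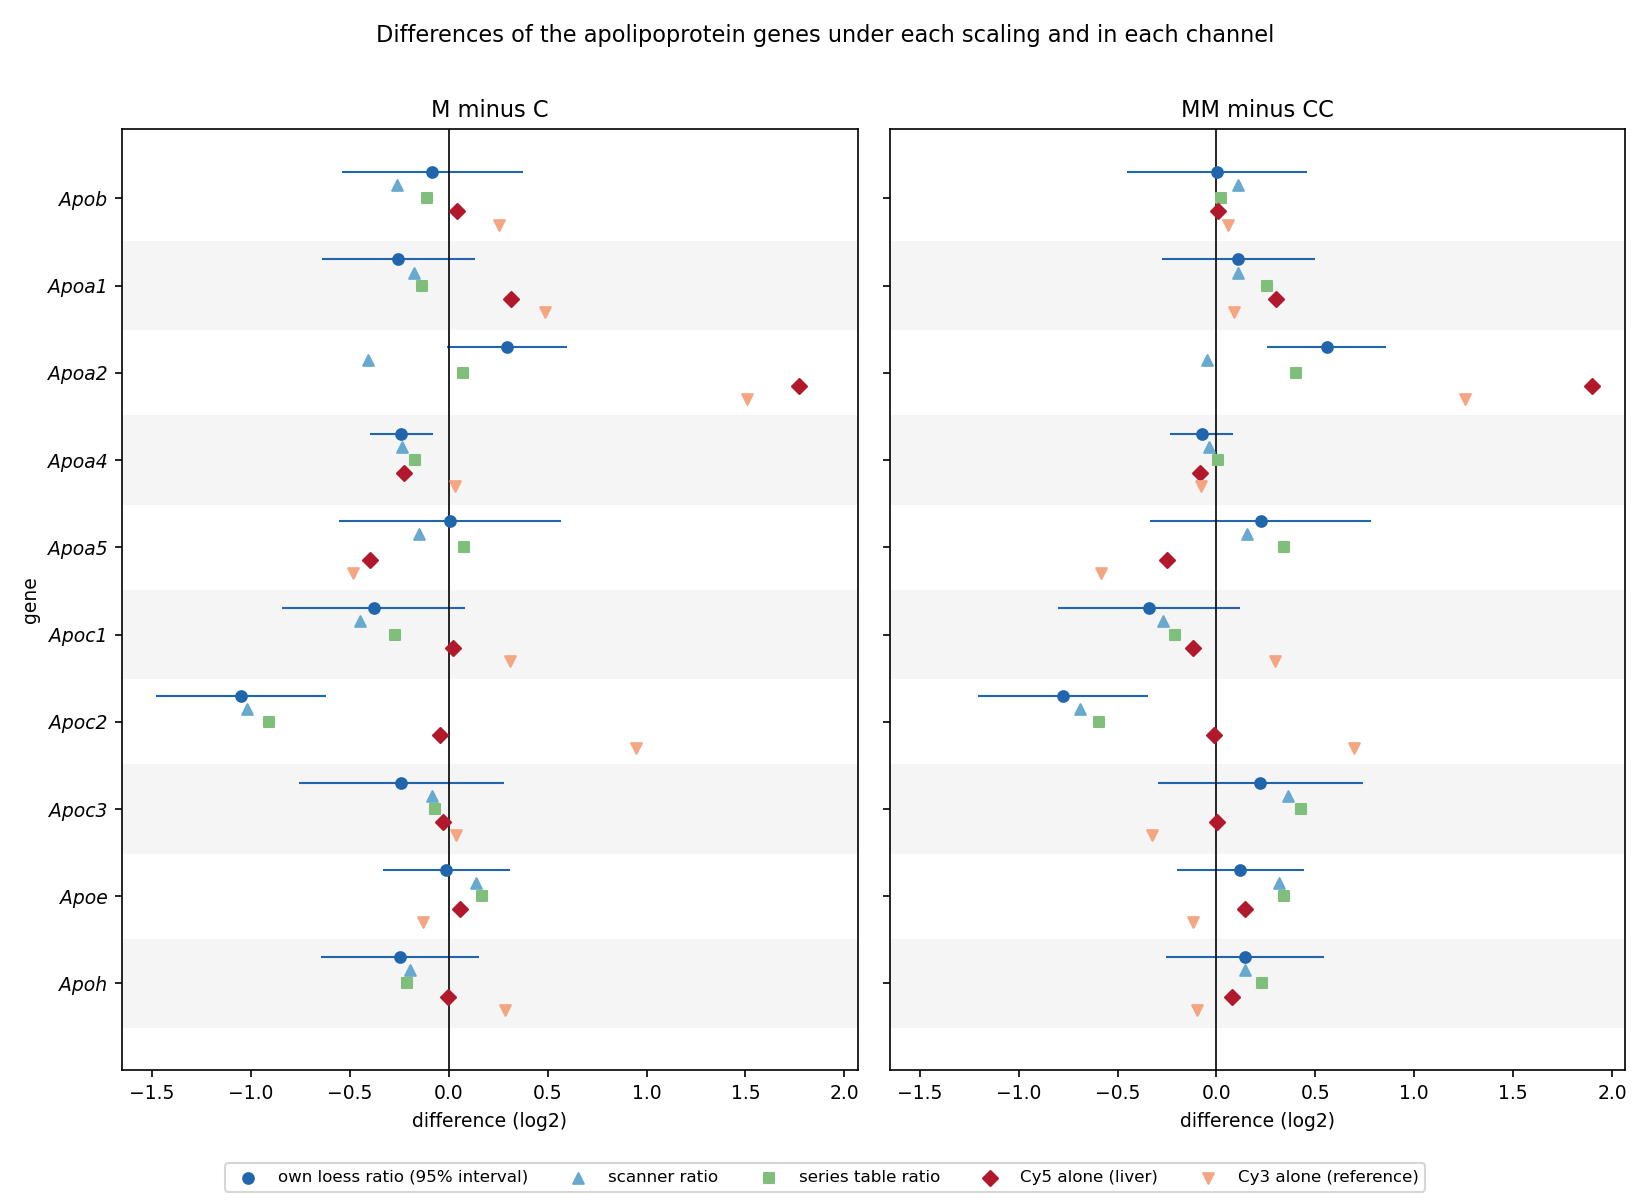
Each row is 1 gene and the horizontal axis the log2 difference, M minus C at left and MM minus CC at right, with symbols for the 3 ratios, Cy5 alone and Cy3 alone and a line for the 95% interval of the loess ratio. For Apoc2 the 3 ratios lie at or below -0.59 while Cy5 alone lies near 0, and for Apoa2 both channels lie above 1.2 while the ratios lie between -0.41 and 0.56.

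Several of the genes differed with the place of the array on the slide, Apoa5 the most. On slide 1 the Apoa5 ratio was 0.53 lower in array row 2 than in row 1, and on slide 2 it was 0.52 lower. In Cy3 the same gene was 0.52 and 0.37 higher in row 2, and Apoa4 was 0.38 and 0.43 higher. Each group had 2 arrays in each row, so the row does not move with the groups. For Apoc2 the row difference of the ratio was 0.23 on slide 1 and -0.11 on slide 2. In the same order it was 0.25 and 0.31 for Apoh, -0.001 and -0.40 for Apob, and 0.11 and -0.32 for Apoc1. Within row 1 Apoc2 differed between M and C by -1.12 (adjusted p = 0.0524) and between MM and CC by -0.37 (adjusted p = 0.457), where the 2 CC arrays include CC 1. Within row 2 it differed by -0.98 (adjusted p = 0.0406) and by -1.18 (adjusted p = 0.0179).

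The cross-fostering comparisons, which ask whether being raised by another dam alters the profile, called none of the 10 genes. Of all 12072 genes 0% were called between CC and C, 0% between MM and M and 0% in the interaction, with limma and Benjamini-Hochberg adjustment. At an unadjusted p below 0.05 there were 336, 275 and 349 genes, and none of the 10. All 20 other settings of the first comparison likewise called 0 of the 10, as did all 20 of the second and 19 of the interaction. Between CC and C the 10 differences lay between -0.40 (Apoa5) and -0.09 (Apoa4), all below 0, with CC 1 as the lowest CC array. Without CC 1 they lay between -0.29 (Apoa5) and 0.07 (Apoc1), with a median of 0.01. The 95% interval of Apoc3 was -0.89 to 0.15 with CC 1, and that of Apoa4 was -0.25 to 0.06.

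Between MM and M the differences lay between -0.19 (Apoa5) and 0.15 (Apoh). Apoa1 was 7.21, 7.26, 7.29 and 7.30 on the MM arrays, against 7.20, 7.0, 7.17 and 7.14 on the M arrays. All MM arrays lay above all M arrays, by a difference of 0.13 ± 0.18 that was not called, and 1.28% of all genes had groups that did not overlap here. The interaction, which is the cross-fostering difference with the mixture minus that without it, ranged from 0.04 ± 0.31 (Apoc1) to 0.46 ± 0.35 (Apoc3), and its 95% interval for Apoc2 was -0.33 to 0.89. Without CC 1 it ranged from -0.22 (Apoc1) to 0.13 (Apoh). The M minus C and CC minus C differences share the C arrays, and the MM minus CC and MM minus M differences share the MM arrays, so their values are given side by side and not as separate evidence.

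Across arrays the genes varied together within groups, largely through 1 array. After subtracting group means from the 16 ratios, 33 of the 45 pairs of genes had a Pearson r above 0.5, with a median of 0.71. Without CC 1, over 15 arrays, 12 of 45 did, with a median of 0.28. Apoa1 and Apoc3, which neighbour each other, had the highest r, 0.99 with CC 1 and 0.77 without it. Apoa4 and Apoc2, which lie on different chromosomes, followed with 0.93 and 0.79. Apoc3 and Apoh had 0.80 with CC 1 and -0.34 without it. These points share arrays, the normalization and the reference RNA, and no test was made.

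The 3 genes most like each apolipoprotein gene over the 16 arrays were taken by the r of such deviations. For Apoa1 they were Apoc3 (0.99), albumin (Alb, 0.98) and fetuin A (Ahsg, 0.98), whose r fell to 0.77, 0.68 and 0.68 without CC 1. For Apob they were Nipsnap1 (0.96), coagulation factor F10 (0.95) and the C1 inhibitor Serping1 (0.95), at 0.95, 0.95 and 0.94 without CC 1. For Apoh they were the serpins Serpina10 (0.97) and Serpind1 (0.97) and the adrenergic receptor Adra1b (0.96), at 0.87, 0.88 and 0.86 without CC 1. For Apoa2 they were Fxyd1, Clec4f and Hoga1 (each 0.90), at 0.84, 0.82 and 0.81 without CC 1. For Apoa5 they were Dohh (0.91), Nek4 (0.86) and Misp3 (0.85), at 0.90, 0.86 and 0.87 without it. For Apoc1 they were Cyp2a1 (0.91), Fetub (0.90) and the cluster neighbour Apoc4 (0.89), whose r fell to 0.78, 0.73 and 0.72. For Apoc2 they were Apoa4 (0.93), Lect2 (0.92) and Serpina1 (0.91), at 0.79, 0.78 and 0.78 without CC 1. For Apoe they were the high-density lipoprotein component Apom (0.92), Cfi (0.92) and Cyp39a1 (0.92), at 0.75, 0.80 and 0.81. For Apoa4 they were F12 (0.96), Serpina1 (0.95) and Ambp (0.95), at 0.85, 0.76 and 0.75, and for Apoc3 Apoa1 (0.99), transferrin (Tf, 0.99) and Ahsg (0.99), at 0.77, 0.71 and 0.66.

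Of 58 other genes of lipoprotein handling 42 were tested. Between M and C 5 were called higher and 3 lower, where 20.4% of all genes were called, and their median difference was -0.01. Between MM and CC 2 were higher and 1 lower, where 20% of all genes were called, and the median was -0.02. No gene of these lists was called between CC and C, between MM and M or in the interaction. The list of other apolipoproteins had 7 genes tested, among them Apobec1 and A1cf, which do not encode apolipoproteins. Apon was higher in M (0.54 ± 0.13, adjusted p = 0.00754), with a Cy5 difference of 0.44 (adjusted p = 0.061) and a Cy3 difference of -0.04. Clu, which encodes clusterin or apolipoprotein J, was higher in MM than in CC (0.35 ± 0.11, adjusted p = 0.0331), with 0.02 in Cy5 and -0.41 in Cy3. Of 8 assembly and secretion genes P4hb, a subunit of the microsomal triglyceride transfer complex, was higher in M (0.38 ± 0.11, adjusted p = 0.0264), and Tm6sf2, which takes part in very-low-density lipoprotein secretion, was higher by 0.31 ± 0.09 (adjusted p = 0.0296), with Cy5 differences of 0.21 and 0.26 that were not called.

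The 7 lipases, transfer proteins and their regulators had a median difference of 0.10 between M and C and of -0.02 between MM and CC. The ratio of none of them was called, where 20.4% and 20% of all genes were. Pon1, which encodes the high-density lipoprotein enzyme paraoxonase 1, was called in Cy5 in both (0.50, adjusted p = 0.0014, and 0.33, adjusted p = 0.0211). Its Cy3 was higher as well, by 0.65 and 0.52, and its scanner ratio stood at -0.64 and -0.55, against -0.03 and -0.16 in the loess ratio. Of 8 receptor and efflux genes, Lrp1, a remnant receptor, had the largest difference of the lists in both mixture comparisons, 0.89 ± 0.14 in M (adjusted p = 0.00039) and 1.12 ± 0.14 in MM (adjusted p = 6.63e-05). Its Cy5 differences were -0.30 and 0.04, and its Cy3 differences -1.16 and -1.09, so that as for Apoc2 the reference channel moved and the liver channel was not called. Sdc1, a heparan sulfate proteoglycan that binds remnants, was lower in M (-0.53 ± 0.13, adjusted p = 0.00995), with -0.39 in Cy5 (adjusted p = 0.125).

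Of 12 transcription regulators tested, 3 were called between M and C, where 20.4% of all genes were called. Foxa2 was lower in M (-0.68 ± 0.18, adjusted p = 0.0138), with -0.25 in Cy5 and 0.46 in Cy3. Nr1d1, a repressor that in mice acts on Apoc3, was higher in M (0.40 ± 0.11, adjusted p = 0.0157), with 0.17 in Cy5 and -0.28 in Cy3, and it stood at 1.11 in the scanner ratio. Esrra, an orphan nuclear receptor, was lower in M (-0.27 ± 0.08, adjusted p = 0.0196) and in MM (-0.23 ± 0.08, adjusted p = 0.043), and its Cy5 differences were called as well (-0.38, adjusted p = 0.0105, and -0.34, adjusted p = 0.0189). Slide and mixture cannot be told apart for any of these genes.

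**Figure D5:**
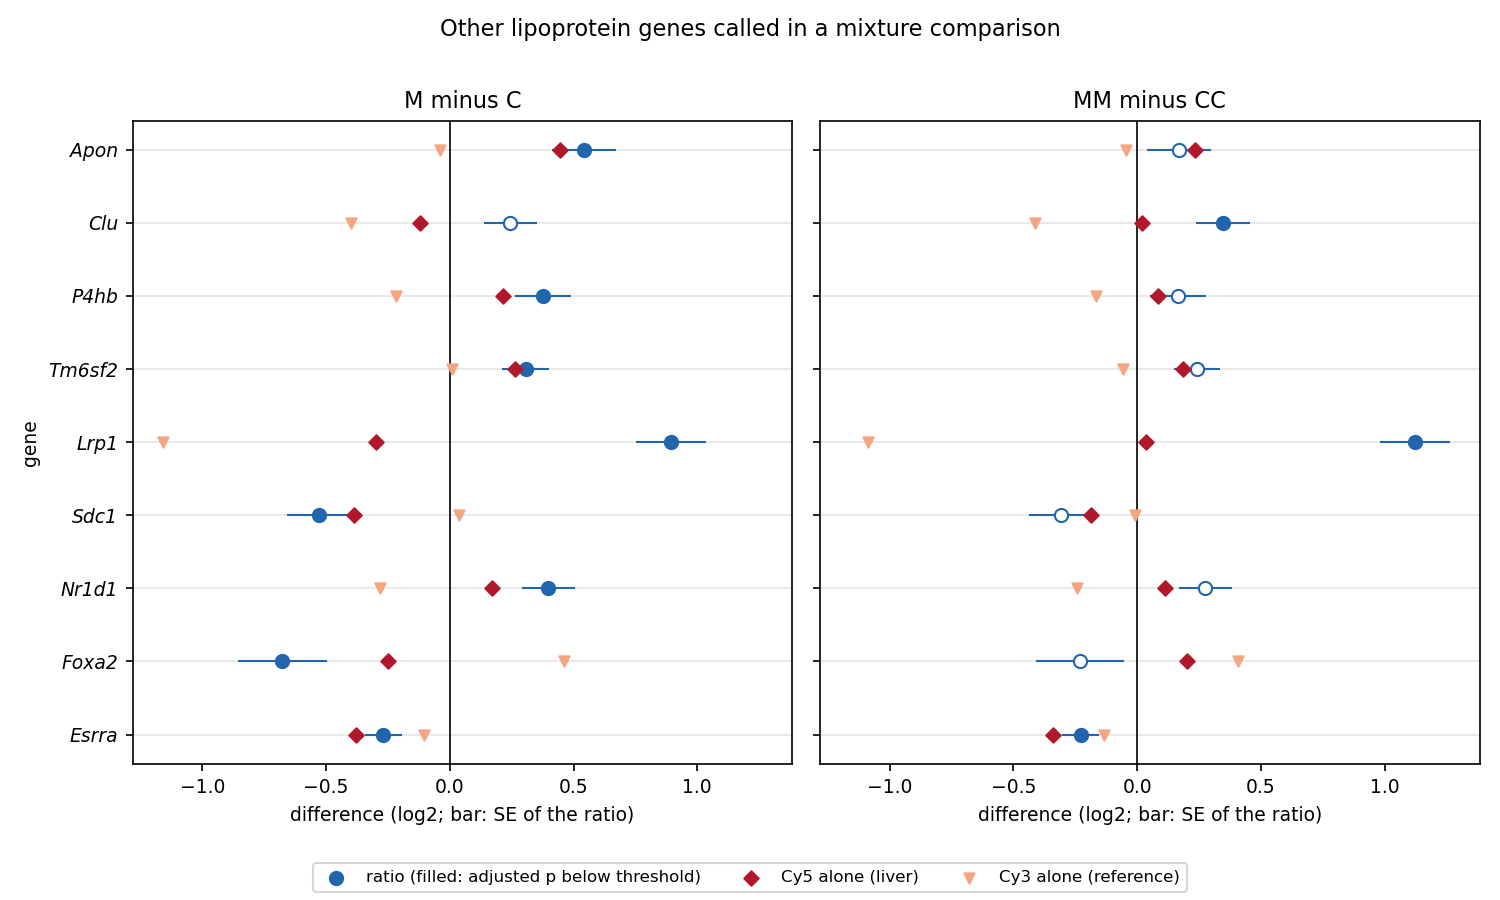
Rows are the genes of the 5 other lists called in a mixture comparison, the horizontal axis is the log2 difference, M minus C at left and MM minus CC at right, and circles give the ratio with a bar for its SE, diamonds Cy5 alone and triangles Cy3 alone. Several genes, among them Esrra, Apon, P4hb and Tm6sf2, have the ratio and Cy5 on the same side of 0 in both panels. For Lrp1 the Cy3 symbol lies near -1.1 and Cy5 at -0.30 and 0.04.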

How the data were processed

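The arrays were scanned with Agilent Feature Extraction 11.0.1.1, per the file headers. The deposited scanner files hold the median intensity of each spot and of its background in both channels, and a log10 ratio of Cy5 over Cy3 that the software made, per the file headers. A series table of log2 values was deposited too, and how it was normalized is not given in the sources used here. Its columns had medians of -0.05 to -0.04 and a slope of 0.997 to 1.009 against the ratios computed here, so it was read as Cy5 over Cy3 on a log2 scale, centred near 0.

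Here background was corrected by normexp with an offset of 50, outlier spots were dropped, and loess normalized the log2 ratios within each array with control spots at weight 0. Outlier spots occurred in Apoc1 alone among the 10 genes, in 13 of 160 readings. Replicate spots were averaged, and probes entered where at least 3 of the 4 arrays of some group had Cy5 well above background, and the brightest probe stood for a gene. This kept 13262 of 30367 probes. The model in limma 3.58.1 (R 4.3.3) had 1 coefficient per group over the 16 arrays together (lmFit, eBayes, two-sided tests, Benjamini-Hochberg adjustment over 12072 genes). Each channel alone was quantile normalized between arrays and fitted likewise. Median spot signals were used because the files hold no means, which the plan had named. The fit was tested on simulated data with noise drawn independently for each gene and array. The simulated data held no slide or array effect, so that test cannot speak to either. Median Cy5 was 87 to 102 over a background of 67 to 73 across arrays, and precision is limited by how many arrays there are.

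The 10 genes and the other lists were chosen with earlier results of these data known. Some genes of these lists and 1 promoter motif are not reported here. The naming rule gives all 10 genes, up to 4 called genes per other list and comparison, and the 3 genes most like each of the 10. Promoter windows came from RefSeq (build GRCr8), while the files annotate probes on rn4, so no coordinates of genes are given. CC and MM share the numbers 1 to 4, and like-numbered arrays lay in the same array row. The numbers were not treated as pairs, since no label says that a number marks a shared litter or batch. The deviations of like-numbered arrays also did not all correlate above 0.1. Alternatives were other sources and normalizations of the ratio, filters, array row, the arrays in the fit and each array left out, and some, among them the joint omission of CC 1 with another scaling, were chosen after seeing the data.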

Additional observations from a re-analysis of the deposited data

Results flagged for a closer look

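Samples were flagged where the lowest or highest array of a group of 4 was separated from the next by a larger part of the group's range than Dixon's 95% critical value allows, a gap that chance gives in about 1 of 20 groups. Of 40 groups checked (10 genes in 4 groups) 10 were flagged. Of these, 8 were the array CC 1, the lowest of its group, with log2 ratios of 6.31 in Apoa1, 5.88 in Apoa2, 4.31 in Apoa4, 8.64 in Apoc1, 6.42 in Apoc2, 4.30 in Apoc3, 5.23 in Apoe and 4.67 in Apoh. The values of 1 array are not independent of each other. C 11 had an Apoa4 ratio of 4.55, the lowest of the C arrays. MM 3 had an Apob ratio of 6.91, the lowest of the MM arrays.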

How the results depend on the processing

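The count of apolipoprotein genes called moved with the processing in both mixture comparisons. The block for the array row of each slide, named below, gives each difference at row 1. With array row as a block over both slides 2 genes were called in each comparison, where 27.5% and 27.3% of all genes were called. Between M and C, where 2 were called, the count was 1 with the scanner ratio, the series table (with or without CC 1), Cy5 alone (quantile normalized or scaled to the 75th percentile), no filter on dim probes, an intensity trend, a block for the array row of each slide, or row 2 alone. Those settings called from 1.62% (Cy5 scaled to the 75th percentile) to 33.3% (scanner ratio) of all genes, with 8.39% for no filter and 5.84% for row 2. The count was 0 within row 1, where 6.93% of all genes were called, 5 with the 8 M and C arrays alone (19.7%) and 5 with the scanner ratio without CC 1 (36.1%). Leaving out 1 array at a time gave 1 to 4, the highest without CC 1, and 1895 to 2766 of all genes. Between MM and CC, where 2 were called, the count was 1 with the scanner ratio, the series table (with or without CC 1), Cy5 alone (with or without CC 1, or scaled to the 75th percentile), no background correction, a block for the array row of each slide, or row 1 alone. These settings called from 2.05% (Cy5 alone without CC 1) to 32.8% (scanner ratio) of all genes. The count was 3 with median centring (Apoa4, Apoc1 and Apoc2, with Apoa2 lost at adjusted p = 0.0533), where 40.3% of all genes were called. It was also 3 with the scanner ratio without CC 1 (Apoa2, Apoc1 and Apoc2), where 31.9% were. Row 2 alone called 2, Apoc2 and Apoc1 (-0.92, adjusted p = 0.00518), where 10% of all genes were called. The count was 0 with the 8 MM and CC arrays alone, where 12.8% of all genes were called. It was also 0 with the replicate block (16.6%), which left Apoa2 at 0.56 (adjusted p = 0.0657) and Apoc2 at -0.78 (adjusted p = 0.0677). That block pairs like-numbered arrays, which share a number and also an array row, so it takes up the row as well. The correlations of their deviations were 0.34, 0.06, 0.19 and 0.11, above 0.1 in 3 of 4 pairs. The replicate block called 2000 of all genes, against 2419. Leaving out 1 array gave 2 to 3, and 1764 to 2531 of all genes. In Cy5 alone the M minus C count was then 1 to 2 (2 without CC 1, MM 1 or MM 3, by Apoa5), and 154 to 376 of all genes. In Cy3 alone the MM minus CC count was 2 to 5, against 3, the highest without CC 1, and 7550 to 8396 of all genes.

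Apoc2 stayed called in 16 of 16 fits that left out an array in both comparisons (adjusted p 6.63e-05 to 0.00822 between M and C and 0.000215 to 0.0473 between MM and CC), and so did Apoa2 between MM and CC. With the scanner ratio Apoa2 reversed between MM and CC (-0.046, adjusted p = 0.857, and -0.26 without CC 1) and, without CC 1, was called at -0.41 between M and C, where the loess ratio had not called it. In Cy5 without CC 1 Apoa5 was called at -0.40 between M and C, opposite in sign to its uncalled ratio. Differences that were not called often changed sign under some setting: 6 of 8 between M and C, 8 of 8 between MM and CC, 9 of 10 between CC and C, 8 of 10 between MM and M and 7 of 10 in the interaction. Both cross-fostering comparisons and the interaction called 0 of the 10 genes under every setting run. The cause of these changes was not tested.

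Over all genes, 2459 were called between M and C and 2419 between MM and CC, 40.2% and 39.1% of them higher with the mixture. The scanner ratio called 4024 and 3957, Cy5 alone 267 and 310 (73.4% and 83.5% higher), row 1 alone 837 and 591 and row 2 alone 705 and 1210. Of the MM minus CC calls of the series table, 52% were higher. Median centring called 4862 between MM and CC, 18.1% of them higher, and put the median of all genes at -0.19, against -0.06. The MM and CC arrays alone called 1547.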
